A study of Mus musculus with 4 samples.

Results

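Fibroblast growth factors (FGFs) are small signalling proteins that bind receptor tyrosine kinases at the cell surface, with heparan sulphate as a cofactor, and switch on the RAS-ERK cascade. The cascade induces its own brakes: the Sprouty (*Spry*) and *Spred* proteins act on RAS and RAF, the phosphatase DUSP6 removes phosphate from ERK, and the ETS factors ETV4 and ETV5 are among its transcriptional targets, so that the levels of these genes are often read as a record of FGF input. In the mouse embryo, FGF8 and FGF10 from the pharynx and second heart field are known for their part in outflow tract growth, and FGF9 from the epicardium and endocardium for its part in myocardial growth. Here 36 genes of this pathway were followed in hearts at E10.5. They were chosen by symbol from the 32285 genes in the files, with earlier results of these data known. They comprise 22 *Fgf* genes, 5 receptor genes (*Fgfr1* to *Fgfr4* and *Fgfrl1*) and 9 feedback genes and targets (*Spry1* to *Spry4*, *Spred1*, *Spred2*, *Dusp6*, *Etv4* and *Etv5*).

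The hearts came from control embryos, which carried 2 floxed *Tie2* alleles without Cre (Tie2 f/f), and from *Tie2-cko* embryos (Nfatc1Cre;Tie2 f/f), in which a constitutive Cre knocked into *Nfatc1* deletes *Tie2* (gene symbol *Tek*), the angiopoietin receptor, in the endocardium. Both genotypes shared a mixed background of 129 and C57/BL6, embryos of both sexes were used, and the entire cardiogenic region was taken. Single-cell RNA sequencing in droplets (10x Genomics) was run on 2 hearts of each genotype from 1 litter, which gave libraries 5 and 7 of the controls and 6 and 8 of the *Tie2-cko* embryos. Each captured transcript carries a unique molecular identifier (UMI), and the deposited values are UMI counts per gene and cell.

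After filtering, 33419 cells remained, 5684 to 10097 a library, with 14878 to 25875 UMIs in the median cell, and any 2 libraries shared 12 to 29 barcodes. Cells were clustered without the 36 genes and named from marker lists, which gave 22 cell types: cardiomyocytes (CMs) of the ventricle, the atrium, the sinus venosus and atrioventricular canal (AVC) and the outflow tract; endocardial cells (EdCs) of the chambers and the cushions; cushion mesenchymal cells (MCs); epicardial cells; and endothelial, mesenchymal, epithelial, blood and neural cells. Libraries 5 and 6 held types that libraries 7 and 8 all but lacked, such as foregut mesenchyme-like cells, with 570 and 603 cells against 2 and 3, a split that crosses the genotypes. In chamber EdCs, *Tek* stood at 83.3 and 97.9 CPM in the control libraries and at 14.6 and 17.97 in the *Tie2-cko* libraries, so that the targeted gene followed the labels. It was also lower in cushion EdCs, with 94.4 and 179 against 27.5 and 23.2, and in cushion MCs, with 15.7 and 28.01 against 5.22 and 3.97. Vascular endothelial-like cells held 60.2 and 89.9 against 79.0 and 60.0, which overlapped.

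Levels below are in CPM, the UMIs of a gene per 1000000 UMIs of all genes, summed over the cells of 1 type in 1 library and then averaged over libraries with at least 20 such cells, as mean ± SD (n = 4 libraries unless stated). They compare 1 gene between cell types, and because the cell types were drawn from the same cells, differences between types are described and not tested. Red blood cells, in which most of these genes are not known to act, serve as a guide to the level that free RNA can produce. They had 22811.5 to 60281 UMIs in the median cell of a library, against 11036 to 27717 in chamber EdCs. Free RNA could weigh more in types with fewer UMIs per cell, which was not tested. Of the 36 genes, 20 reached 10 CPM in at least 1 named cell type: 10 *Fgf* genes, 3 receptors and 7 feedback genes. *Fgf21* had 0 UMIs in the 33419 cells, which allows a share of cells with a UMI of up to 0.00898% (counting error only), and *Fgf4*, *Fgf16*, *Fgf17* and *Fgf20* had under 100 UMIs each.

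**Figure D1:**
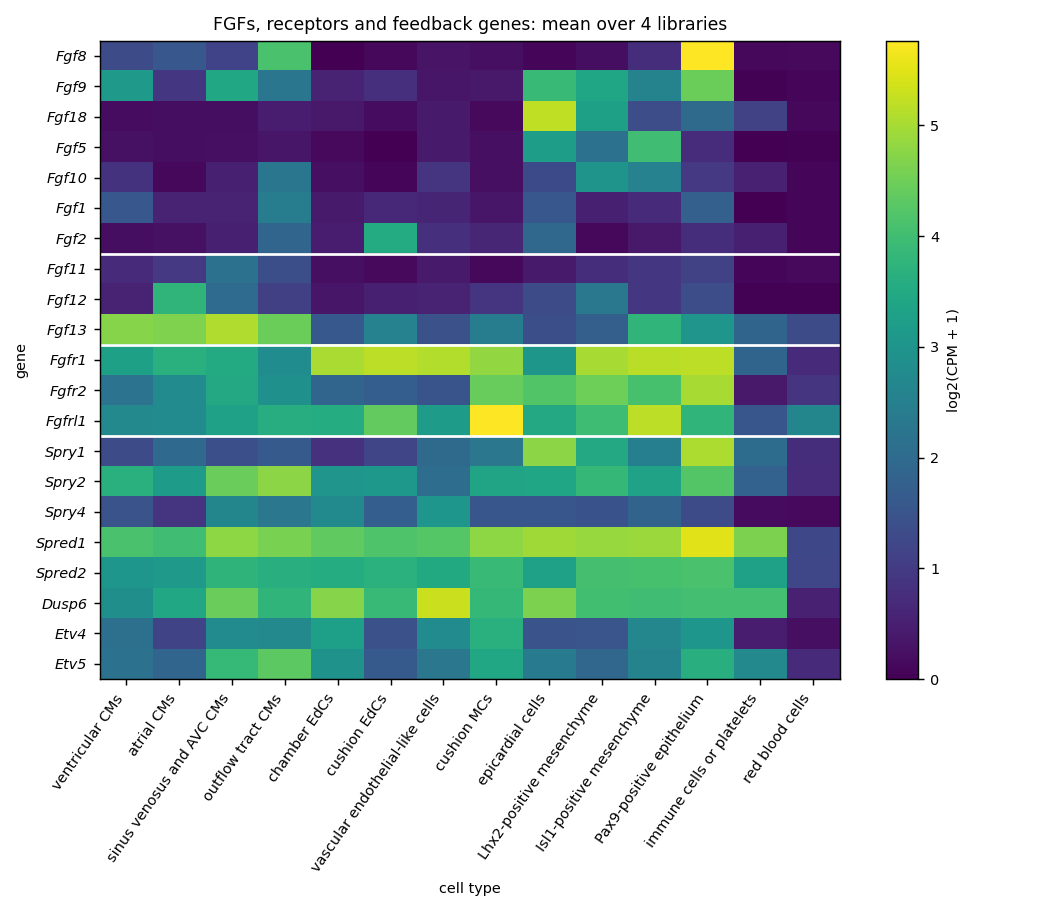
Mean level over the 4 libraries, as log2(CPM + 1), of the 20 genes that reached 10 CPM in a named cell type and of *Spry4*, in the 14 cell types with at least 20 cells in every library. White lines separate secreted FGFs, intracellular FGFs, receptors and feedback genes, and each gene is to be read along its row: secreted *Fgf* genes were high in 1 or a few types, whereas *Fgfr1*, *Spred1* and *Dusp6* were spread over most.

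The secreted FGFs were unevenly spread over the cell types. Pax9-positive epithelium had the highest level of the *Fgf8* and *Fgf9* subfamilies, with 57.7 and 26.1 CPM on average, foregut mesenchyme-like cells that of the *Fgf7* subfamily with 18.1 (n = 2) and Isl1-positive mesenchyme that of the *Fgf4* subfamily with 15.5. Summed over the 18 secreted *Fgf* genes, Pax9-positive epithelium held 101 ± 27.1 CPM, the small Foxe1 and Pax8 epithelium 66.9 ± 1.86 (n = 3), epicardial cells 65.4 ± 7.19 and outflow tract CMs 35.4 ± 6.17. Lhx2-positive mesenchyme, led by *Lhx2* and *Shisa3*, held 30.7 ± 10.3 and Isl1-positive mesenchyme 30.4 ± 6.27. At the other end were chamber EdCs with 2.17 ± 0.708 and cushion MCs with 2.62 ± 0.596, close to the 1.40 ± 0.911 of red blood cells. Ventricular CMs stood between at 13.7 ± 0.764, of which *Fgf9* made up the largest part.

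*Fgf8*, on chromosome 19 (45736798 to 45742915, minus strand, GRCm38), is the FGF best known for pharyngeal and outflow tract development. It was highest in Pax9-positive epithelium, a pharyngeal-type epithelium led by *Epcam*, *Cldn7* and *Pax9*, with 49.0 and 30.04 CPM in the controls (libraries 5 and 7) against 103 and 28.8 in *Tie2-cko* libraries 6 and 8. The value of library 6 rests on 87 UMIs in 35 cells. Outflow tract CMs followed with 16.1 and 11.7 against 23.3 and 13.6, and in each library they stood below the epithelium. Atrial CMs came next at 1.97 ± 0.485. Of all 1829 *Fgf8* UMIs, 749 (41.0%) lay in outflow tract CMs and 486 (26.6%) in the epithelium. After each cell was thinned to 5500 UMIs, 6.09% to 9.47% of outflow tract CMs and 9.47% to 18.5% of epithelial cells held an *Fgf8* UMI, and none of 1130, 483, 609 and 171 red blood cells did. The genotypes overlapped in both types, with a log2 fold change of 0.37 (SE 0.27) in outflow tract CMs and 0.51 (SE 0.54) in the epithelium.

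*Fgf18*, of the same subfamily (chromosome 11, 33117430 to 33147400, minus strand), was found in other cells. Epicardial cells held 33.9 and 40.8 CPM in the control libraries and 37.5 and 32.9 in the *Tie2-cko* libraries, and 1350 of its 1837 UMIs (73.5%). Foxe1 and Pax8 epithelium held 19.6 ± 3.10 (n = 3), Dkk2-positive mesenchyme 13.2 and 10.4 in libraries 5 and 6, and Lhx2-positive mesenchyme 8.73 ± 4.73. In outflow tract CMs, where *Fgf8* was high, it was at 0.350 ± 0.214. The genotypes overlapped in epicardial cells (log2 fold change -0.12, SE 0.15). *Fgf17*, the third gene of the subfamily, had 35 UMIs, of which 25 were in the Pax9-positive epithelium.

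The *Fgf9* subfamily was shared between the myocardium, the epicardium, epithelium and foregut mesenchyme. *Fgf9* (chromosome 14, 58070547 to 58112720) was highest in Pax9-positive epithelium, with 14.5 and 24.3 CPM in the control libraries and 16.5 and 29.3 in the *Tie2-cko* libraries. Epicardial cells followed with 14.5 and 13.8 against 15.5 and 11.6, the ranges of both types meeting, and foregut mesenchyme-like cells held 15.7 and 13.5 in libraries 5 and 6. Sinus venosus and AVC CMs held 9.92 ± 4.73 and ventricular CMs 7.54 ± 0.395, whereas atrial CMs held 0.887 ± 0.314. Chamber EdCs, at 0.484 ± 0.444, and cushion EdCs, at 0.734 ± 0.161, were low, although the endocardium is known as a source of FGF9. *Fgf20* was all but restricted in these libraries to Pax9-positive epithelium, with 59 of its 60 UMIs there, and the 14 UMIs of *Fgf16* were too few to rank.

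*Fgf5*, of the *Fgf4* subfamily, was highest in Isl1-positive mesenchyme, with 12.495 and 16.2 CPM in the control libraries and 15.5 and 15.96 in the *Tie2-cko* libraries. Epicardial cells had 8.41 ± 1.81, below each of those 4 values, and Foxe1 and Pax8 epithelium 13.2 ± 4.29 (n = 3). Within the Isl1-positive mesenchyme it was uneven: a cluster of 589 cells led by *Phlda2*, *Rgs5* and *Eln* held 20.2, with 12.7 to 30.8 in the 4 libraries, one of 217 cells led by *Tlx1* and *Pcp4* held 16.4, and one of 239 cells led by *Col9a1* and *Ntng1* held 2.34, with 0 to 15.9 in the 4 libraries, the highest on 16 cells. These 3 clusters held 3 or 4 of 10 second heart field markers each, and Pax9-positive epithelium held 3 as well. *Fgf6*, of the same subfamily, was at a low level in outflow tract CMs, with 3.33 ± 1.04, yet 156 of its 240 UMIs (65.0%) were there. *Fgf4* had 30 of 34 UMIs in Pax9-positive epithelium. *Fgf3* and *Fgf4*, neighbours on chromosome 7 (144838083 to 144844436 and 144847367 to 144865243), were both highest in that epithelium, where *Fgf3* reached 8.34 ± 3.66. *Fgf3* also had 4.95 and 7.89 CPM in the immune cells or platelets of libraries 5 and 6 and 0 in those of libraries 7 and 8, which held 26 and 35 such cells.

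*Fgf10*, which signals from mesenchyme to epithelium in the lung, was highest in foregut mesenchyme-like cells, with 20.4 CPM in library 5 and 14.5 in library 6 (the other libraries had too few cells). In Lhx2-positive mesenchyme the values were 12.3 and 0 in the control libraries and 12.8 and 2.70 in the *Tie2-cko* libraries, library 7 having 35 such cells. Isl1-positive mesenchyme held 11.39 in library 5 and 2.03 to 4.08 in the other 3. Within it, the cluster led by *Tlx1* and *Pcp4* had 33 UMIs of *Fgf10* and held 26.5 in library 5, 6.34 in library 6, 0 in library 7 and 6.97 in library 8. Outflow tract CMs were the only CM type above 1 CPM on average, at 3.81 ± 1.08. *Fgf7*, a close relative, was instead highest in atrial CMs at 1.81 ± 0.236.

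*Fgf1* and *Fgf2*, which lack a classical signal peptide, marked different cells. *Fgf2* (chromosome 3, 37348346 to 37410108, with the antisense genes *Fgf2os* and *Nudt6* overlapping it) was highest in cushion EdCs, with 10.3 and 10.04 CPM in the control libraries and 10.9 and 11.35 in the *Tie2-cko* libraries. No other type with cells in all 4 libraries passed the 2.80 ± 0.691 of epicardial cells, and chamber EdCs were at 0.368 ± 0.368. *Fgf1* was highest in Foxe1 and Pax8 epithelium, with 34.8 in control library 5 and 27.5 and 19.1 in *Tie2-cko* libraries 6 and 8, on 8, 12 and 10 UMIs. Within the heart it was highest in outflow tract CMs, with 6.32 and 2.49 in the control libraries and 5.58 and 3.24 in the *Tie2-cko* libraries. Ventricular CMs held 1.94 ± 0.961. In both CM types, libraries 7 and 8 were below libraries 5 and 6.

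**Figure D2:**
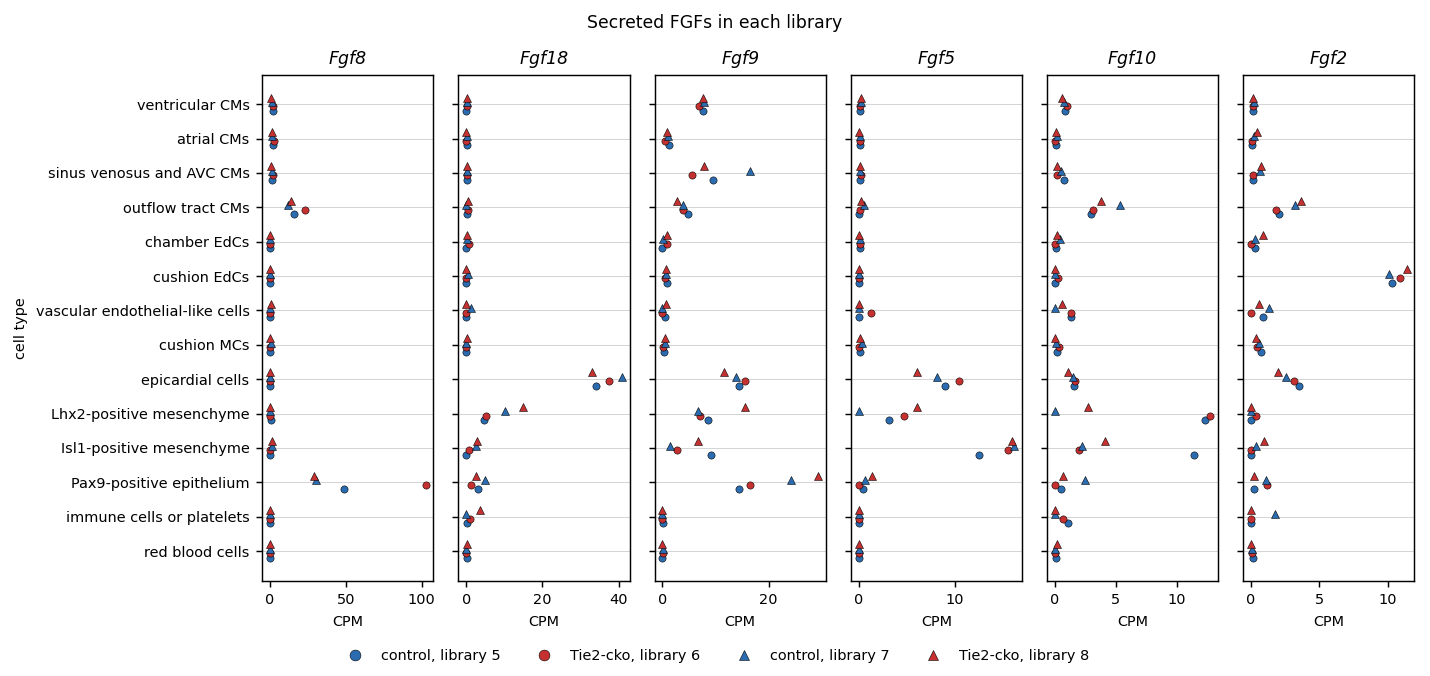
CPM of 6 secreted *Fgf* genes in each cell type (rows) and library (blue, control; red, *Tie2-cko*; circles, libraries 5 and 6; triangles, libraries 7 and 8). The rows in which a gene stood out differed from gene to gene, such as *Fgf18* in epicardial cells (32.9 to 40.8) and *Fgf2* in cushion EdCs (10.04 to 11.35).

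The intracellular FGFs, *Fgf11* to *Fgf14*, are not secreted and bind voltage-gated sodium channels. Together they held 24.1 to 39.8 CPM on average in the 4 CM types, more than the secreted FGFs in 3 of them; the exception was outflow tract CMs. *Fgf13* (chromosome X, 59062145 to 59568071) made up most of this, with 27.8 and 37.6 in the control libraries and 29.4 and 36.4 in the *Tie2-cko* libraries in sinus venosus and AVC CMs. The other CM types had averages of 21.1 to 25.3, and the range of sinus venosus and AVC CMs overlapped that of ventricular CMs and lay above those of atrial and outflow tract CMs. *Fgf12* was by contrast an atrial gene in these libraries, with 12.6 and 11.8 in control and 14.4 and 12.1 in *Tie2-cko* atrial CMs. Ventricular CMs held 0.457 ± 0.114 and sinus venosus and AVC CMs 3.05 ± 1.72, and no value of another of the 14 types reached the atrial ones. *Fgf11* was highest in Foxe1 and Pax8 epithelium, with 8.69 in control library 5 and 13.8 and 11.48 in *Tie2-cko* libraries 6 and 8, on 2, 6 and 6 UMIs, and stood at 3.41 ± 0.745 in sinus venosus and AVC CMs.

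The remaining *Fgf* genes stayed low. *Fgf14*, *Fgf22* and *Fgf23* did not pass 2.28 CPM in any named type. *Fgf15*, an endocrine FGF in the adult, reached 5.19 ± 1.47 (n = 3) in Dlx-positive pharyngeal mesenchyme, with 4.003 and 4.73 in the control libraries and 6.84 in library 8. Of its 196 UMIs, 94 were in red blood cells, 46 in each of libraries 5 and 6, where the level was 1.25 and 1.55.

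Receptors were spread more widely than ligands, and cushion mesenchyme held most among the 14 types. Summed over the 5 receptor genes, cushion MCs had 106 ± 13.1 CPM, followed by Isl1-positive mesenchyme with 94.6 ± 11.53, Pax9-positive epithelium with 80.8 ± 5.06 and Lhx2-positive mesenchyme with 70.8 ± 13.4. Cushion EdCs held 61.9 ± 9.94 and chamber EdCs 46.6 ± 3.10, and the CM types 18.5 to 29.8 on average. Red blood cells held 6.83 ± 0.579, of which *Fgfrl1* was the largest part. The UMIs do not tell the IIIb and IIIc splice forms apart, on which ligand choice depends.

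*Fgfr1* was high in endocardium, other endothelium, mesenchyme and Pax9-positive epithelium, and lower in CMs. It was highest in Dlx-positive pharyngeal mesenchyme, with 52.8 and 41.4 CPM in the control libraries and 38.1 in *Tie2-cko* library 8 (library 6 had 18 such cells). Cushion EdCs held 35.5 ± 5.85, vascular endothelial-like cells 33.1 ± 9.66, chamber EdCs 31.9 ± 1.81 and cushion MCs 27.4 ± 2.90. The ranges of neighbours in this order overlapped, and Pax9-positive epithelium at 35.5 ± 5.81 and Isl1-positive mesenchyme at 35.2 ± 7.05 lay among them. CMs held 6.02 to 11.7 on average and epicardial cells 7.34 ± 1.49.

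*Fgfr2* had another pattern, high in epithelium, intermediate in mesenchyme and epicardium, and low in endothelium. Lung bud epithelium-like cells, which were found in libraries 5 and 6, held 78.8 and 81.5 CPM, and Foxe1 and Pax8 epithelium 73.5 ± 9.71 (n = 3). Pax9-positive epithelium held 41.1 and 23.2 in the control libraries and 33.0 and 28.4 in the *Tie2-cko* libraries. Cushion MCs held 20.3 ± 1.64, in which all 4 libraries were above the 2.29 ± 0.137 of cushion EdCs and the 2.66 ± 0.866 of chamber EdCs. Within the Isl1-positive mesenchyme it was uneven in the opposite way to *Fgf5*: the cluster led by *Col9a1* and *Ntng1* held 42.8, and the clusters led by *Phlda2* and by *Tlx1* held 6.22 and 7.11. The GENCODE M21 model of *Fgfr2* overlaps 48 other genes of the files, so its count is less certain than the others.

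*Fgfrl1*, a receptor without a tyrosine kinase domain (chromosome 5, 108692382 to 108706924), was highest in cushion MCs, with 48.8 and 47.0 CPM in the control libraries and 66.8 and 50.9 in the *Tie2-cko* libraries. Isl1-positive mesenchyme held 35.7 ± 7.75 and cushion EdCs 19.8 ± 5.00, against 10.8 ± 1.75 in chamber EdCs. The 4 values of cushion EdCs all lay above those of chamber EdCs in the same library, and those of cushion MCs above both. *Fgfr3* stayed under 10, with 7.63 ± 3.04 in Isl1-positive mesenchyme and 6.41 ± 1.40 in epicardial cells. *Fgfr4*, known from the liver, was highest in hepatic-endoderm-like cells at 7.03 ± 0.921 (n = 3), which held 119 of its 229 UMIs.

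**Figure D3:**
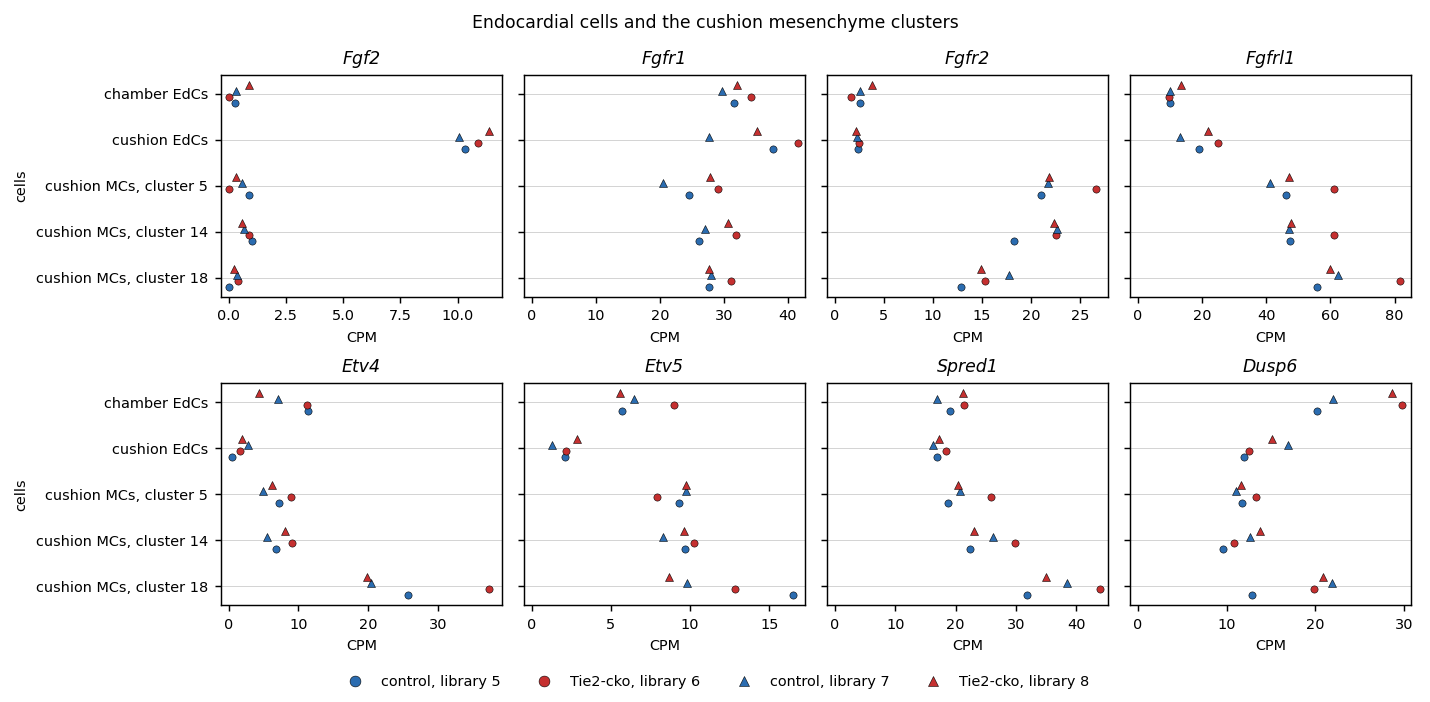
CPM of 8 genes in the 4 libraries (blue, control; red, *Tie2-cko*; circles, libraries 5 and 6; triangles, libraries 7 and 8) for chamber EdCs, cushion EdCs and the 3 clusters of cushion MCs. *Fgf2* was high in cushion EdCs and near 0 in the MCs, *Fgfr2* and *Fgfrl1* were higher in the MCs than in either kind of EdC, and *Etv4* was higher in cluster 18 (19.7 to 37.2) than in clusters 5 and 14 (4.93 to 9.06).

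Feedback genes and targets were present in nearly every type, with sums of 48.3 to 147 CPM on average in the 13 types other than red blood cells, which held 5.41 ± 1.34. Pax9-positive epithelium was highest with 147 ± 12.4. The myocardium was split: sinus venosus and AVC CMs, at 107 ± 22.02, and outflow tract CMs, at 104 ± 19.4, held more in every library than ventricular CMs, at 51.8 ± 8.04, and atrial CMs, at 48.3 ± 8.69.

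The ETS factor genes were regional. *Etv5* (chromosome 16, 22381309 to 22439719, minus strand) stood at 189 and 183 CPM in lung bud epithelium-like cells of libraries 5 and 6. In outflow tract CMs it was 16.6 and 15.7 in the control libraries and 22.2 and 20.6 in the *Tie2-cko* libraries, and in sinus venosus and AVC CMs 13.4 ± 1.52, above the 3.48 ± 0.399 of ventricular and 2.66 ± 0.405 of atrial CMs. *Etv4* was highest in Dlx-positive pharyngeal mesenchyme, with 17.9 and 17.4 in the control libraries and 16.6 in *Tie2-cko* library 8. Cushion MCs held 11.7 ± 3.83, but their clusters differed: a cluster of 716 cells led by *Stmn4*, *Postn* and *Inhba* held 25.7 and 20.4 in the control libraries and 37.2 and 19.7 in the *Tie2-cko* libraries, above all values of the other 2 clusters. *Spred1* was also higher in that cluster, with 31.8 to 43.9 against 18.8 to 29.8. Across 13 cell types the levels of *Etv4* and *Etv5* went together as a description (Pearson's r = 0.61 on the log2 scale, Spearman's rho = 0.65), the types sharing libraries and depth.

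The *Spry* genes each had a pattern of their own. *Spry1* was highest in Pax9-positive epithelium, with 38.8 and 37.6 CPM in the control libraries and 27.1 and 25.8 in the *Tie2-cko* libraries, and next in epicardial cells with 24.1 and 23.5 against 27.4 and 29.7. It was at or under 2.99 on average in every CM and endothelial type. *Spry2* (chromosome 14, 105891947 to 105896819, minus strand) was highest in outflow tract CMs, with 14.1 and 38.0 in the control libraries and 16.1 and 36.2 in the *Tie2-cko* libraries. Sinus venosus and AVC CMs held 10.8 and 33.0 against 12.2 and 26.8. In both types libraries 7 and 8 were above libraries 5 and 6, whatever the genotype, and the same held in 13 of the 13 cell types in which *Spry2* was tested, with ratios of 1.36 to 3.72. Of all genes tested, 18.8% to 31.2% lay on that side, depending on the cell type. *Fgf8* went the other way, lower in libraries 7 and 8 in 5 of 5 types, a side on which 26.1% to 33.8% of all genes lay. The labels name no batch for these libraries, their make-up differed the same way, as the foregut cells show, and its part in these differences was not tested. *Spry4* stayed low: it was at 6.17 and 10.0 in neural cells of libraries 5 and 6, 7.13 ± 2.38 in vascular endothelial-like cells, 5.75 ± 2.84 in chamber EdCs and 5.23 ± 1.82 in sinus venosus and AVC CMs, against 1.79 ± 0.164 in ventricular CMs. *Spry3* had 139 UMIs in all.

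*Spred1*, *Spred2* and *Dusp6* were the most widespread. *Spred1* reached 10 CPM in 21 of the 22 named types, and was highest in lung bud epithelium-like cells with 54.9 and 83.2 in libraries 5 and 6. Pax9-positive epithelium held 44.4 ± 9.33, and sinus venosus and AVC CMs, at 26.5 ± 3.83, stood above the 16.4 ± 1.48 of ventricular CMs in every library. *Spred2* varied less, and its highest values were 16.2 and 20.5 in neural cells of libraries 5 and 6. *Dusp6* (chromosome 10, 99263231 to 99267489) was highest in neural cells of the same libraries with 62.5 and 61.4. Vascular endothelial-like cells came next with 45.1 and 26.5 in the control libraries and 50.4 and 32.8 in the *Tie2-cko* libraries, and chamber EdCs held 25.2 ± 4.75 against 14.1 ± 2.32 in cushion EdCs.

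Promoter sequence is shown for the feedback genes that, in chamber EdCs, were higher in both *Tie2-cko* libraries (*Dusp6*, *Spred1* and *Spred2*; *Spry4*, the fourth, is not shown), and for *Etv5*, which was highest by far in lung bud epithelium-like cells, from the RefSeq table (GRCm38.p6). The table held 34 promoters of 26 of the 36 genes. Shown are the bases up to 250 before the start that lie outside the GENCODE M21 gene model, 5′ to 3′ on the strand of the gene, with matches on either strand in capitals. The letters searched were AGGAAG and, as another form of the ETS sites, CCGGAA, and GTAAACA, letters found in FOXO sites.
*Dusp6* (chr10:99262981-99263230, plus strand): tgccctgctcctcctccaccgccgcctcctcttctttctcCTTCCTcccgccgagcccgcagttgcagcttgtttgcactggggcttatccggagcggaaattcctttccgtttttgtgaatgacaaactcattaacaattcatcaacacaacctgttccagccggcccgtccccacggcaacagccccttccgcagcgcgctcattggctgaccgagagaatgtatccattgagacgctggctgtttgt
*Spred1* (chr2:117120821-117121070, plus strand): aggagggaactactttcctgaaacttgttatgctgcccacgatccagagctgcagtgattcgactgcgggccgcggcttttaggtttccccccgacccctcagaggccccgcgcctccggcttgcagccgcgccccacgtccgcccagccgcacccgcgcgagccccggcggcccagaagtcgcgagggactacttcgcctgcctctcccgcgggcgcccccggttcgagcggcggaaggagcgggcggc
*Spred2* (chr11:19924192-19924374, plus strand): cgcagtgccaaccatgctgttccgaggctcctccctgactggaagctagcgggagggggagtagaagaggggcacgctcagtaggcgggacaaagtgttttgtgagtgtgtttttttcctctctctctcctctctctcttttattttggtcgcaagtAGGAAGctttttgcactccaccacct
*Etv5* (chr16:22439720-22439820, minus strand): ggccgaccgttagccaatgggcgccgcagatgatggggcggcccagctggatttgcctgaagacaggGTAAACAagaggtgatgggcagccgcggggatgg
The letters AGGAAG stood in 29.5% of 32851 promoters of this length and in 6 of the 34 promoters of the pathway genes, CCGGAA in 12.03% and 4, and GTAAACA in 3.17% and 2, the latter being *Etv5* and *Fgf10*. Another *Etv5* promoter (chr16:22438369-22438618), which lies inside the gene model and is not shown, had 0 matches. Counted back from the RefSeq start, which for *Spred2* and *Etv5* lies inside the gene model and so past the end of the bases shown, the match in *Dusp6* starts 210 bases before it, the one shown in *Spred2* 93 and that in *Etv5* 183. *Etv5* itself stood at 5.70 and 6.45 CPM in control and 8.97 and 5.55 in *Tie2-cko* chamber EdCs, which overlapped.

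The genotypes were compared with edgeR's quasi-likelihood test on UMI counts summed per library and cell type, in 14 cell types and in all CMs and all EdCs, adjusted over all genes of a fit. Over the 16 fits, 249 tests of pathway genes passed the filter on low counts, and 0 reached an adjusted p of 0.05. Of all genes, 0% did so in 11 of the fits, 0.0622% in cushion EdCs, 0.054% in Pax9-positive epithelium, 0.0335% in epicardial cells, 0.00867% in chamber EdCs and 0.00797% in all EdCs. DESeq2 also called 0 of the pathway genes, and 10 of the 249 had an unadjusted p under 0.05 with edgeR, where 1.62% of all tests did. All CMs and all EdCs hold cells of the separate types again, and in the 14 separate types alone it was 8 of 207. The share of all tests was not worked out for these 14 types alone. With 2 libraries of each genotype the p-values measure only the spread between these libraries.

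In chamber EdCs, 11 of the 36 genes passed the filter and 1 of 11531 genes was called, *Tek* itself (log2 fold change -2.52, SE 0.18, adjusted p = 0.00466). Of the 11, 5 had both *Tie2-cko* libraries above both control libraries and 0 had both below, where 24.9% and 13.3% of all genes did. The median log2 fold change was 0.17 over the 11 and 0.00 over all genes tested. The 5 were *Spry4*, *Dusp6*, *Spred2*, *Spred1* and *Fgfr1*, 4 of them feedback genes, and *Spry4* and *Dusp6* had an unadjusted p under 0.05, where 7.24% of all genes did.

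*Spry4* differed most. It stood at 3.53 and 3.12 CPM in the controls (libraries 5 and 7) against 8.63 and 7.74 in *Tie2-cko* libraries 6 and 8, on 26, 29, 51 and 53 UMIs, so that the genotypes did not overlap. The log2 fold change was 1.25 (SE 0.27, unadjusted p = 0.00141), which did not pass the threshold after adjustment over all genes (adjusted p = 0.254 by edgeR). It passed with a block for libraries 5 and 6 (adjusted p = 0.000273) and without the filter on low counts (0.00743), and over the 10 alternatives the adjusted p ran from 0.000273 to 0.678 with log2 fold changes of 1.14 to 1.34. The share of cells with a *Spry4* UMI, after thinning to 5500 UMIs, was 1.40% and 1.27% in control and 4.72% and 1.60% in *Tie2-cko* chamber EdCs, with 0 in red blood cells, so that library 6 set most of that difference (exact permutation p = 0.333, two-sided, the smallest that 2 against 2 libraries allow). After thinning to 3000 UMIs they were 1.36% and 0.510% against 1.49% and 1.09%, which overlapped. Without thinning the shares were 6.12% and 4.38% against 21.2% and 6.78%, with 0.0872% to 0.552% in red blood cells.

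*Dusp6* was at 20.2 and 22.03 CPM in control and 29.8 and 28.6 in *Tie2-cko* chamber EdCs (log2 fold change 0.41, SE 0.15, adjusted p = 0.621 by edgeR, and 0.0296 with the block). *Spred2* stood at 8.14 and 10.2 against 12.52 and 12.4 (0.38, SE 0.21) and *Spred1* at 19.005 and 16.98 against 21.3 and 21.2 (0.19, SE 0.17). *Fgfr1* stood at 31.6 and 29.8 against 34.2 and 32.0 (0.06, SE 0.14), a difference smaller than its error. The share of cells with an *Fgfr1* UMI lay on the other side after thinning to 5500 UMIs, with 16.6% and 15.01% against 8.66% and 13.7%, and overlapped without thinning, with 39.9% and 34.2% against 54.7% and 32.0%. *Etv4* and *Etv5*, the transcriptional targets, overlapped between genotypes, with 0.19 (SE 0.28) for *Etv5* and -0.32 (SE 0.41) for *Etv4*, as did *Spry2*, *Fgfr2*, *Fgfrl1* and *Fgf13*. No secreted *Fgf* gene was abundant enough in chamber EdCs to be tested.

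**Figure D4:**
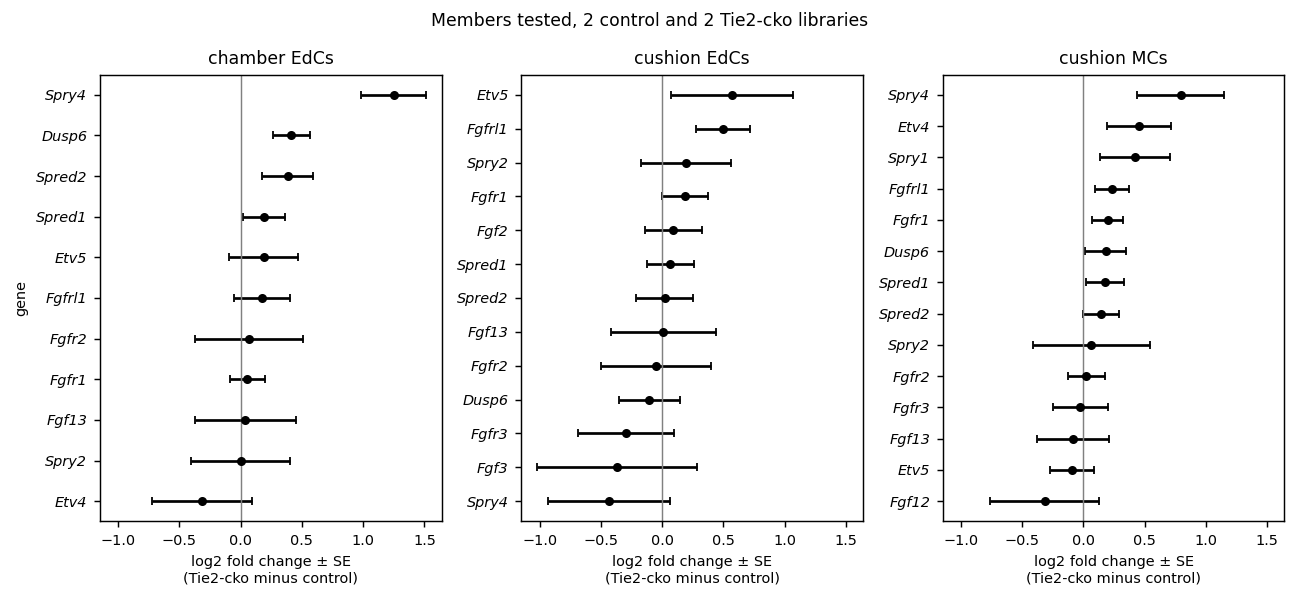
Log2 fold change (*Tie2-cko* minus control, point) and its SE (bar) from edgeR for the pathway genes tested in chamber EdCs (11), cushion EdCs (13) and cushion MCs (14). *Spry4* was at 1.25 in chamber EdCs and 0.79 in cushion MCs but at -0.43 in cushion EdCs, and none passed the threshold after adjustment.

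In the other endothelial cells *Spry4* was not higher in the *Tie2-cko* libraries. Cushion EdCs, in which *Tek* fell as well (log2 fold change -2.49, SE 0.28, adjusted p = 0.0146 by edgeR), held *Spry4* at 1.87 and 3.35 CPM in control and 1.63 and 2.31 in *Tie2-cko* libraries (log2 fold change -0.43, SE 0.50), which overlapped. Vascular endothelial-like cells held 6.84 and 10.6 against 5.53 and 5.56 (-0.61, SE 0.49), on 8 to 17 UMIs a library. Tested directly, the genotype effect on *Spry4* was larger in chamber than in cushion EdCs by 1.67 on the log2 scale (SE 0.53, adjusted p = 0.237 by edgeR) and larger than in all CMs by 1.29 (SE 0.34, adjusted p = 0.109), neither of which passed. The latter passed without control library 5 (adjusted p = 0.0201 by edgeR) or without *Tie2-cko* library 8 (0.00582), and missed the threshold without *Tie2-cko* library 6 (0.308) or control library 7 (0.651). In these tests 0 of 14 and 0 of 24 pathway genes were called, where 0.674% and 0.631% of all genes were. In cushion MCs, which descend only in part from cushion EdCs, *Spry4* was at 1.19 and 1.498 in control and 3.02 and 2.02 in *Tie2-cko* libraries (0.79, SE 0.35). Of the 14 genes tested there, 6 were higher in both *Tie2-cko* libraries and 0 lower, where 17.4% and 7.71% of all genes were. The make-up of cushion MCs differed as well. Their cluster led by *Stmn4*, *Postn* and *Inhba* held 154 of 711 and 201 of 1259 cells in control libraries 5 and 7. In *Tie2-cko* libraries 6 and 8 it held 81 of 291 and 280 of 1121. The part of this make-up in the differences was not tested.

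**Figure D5:**
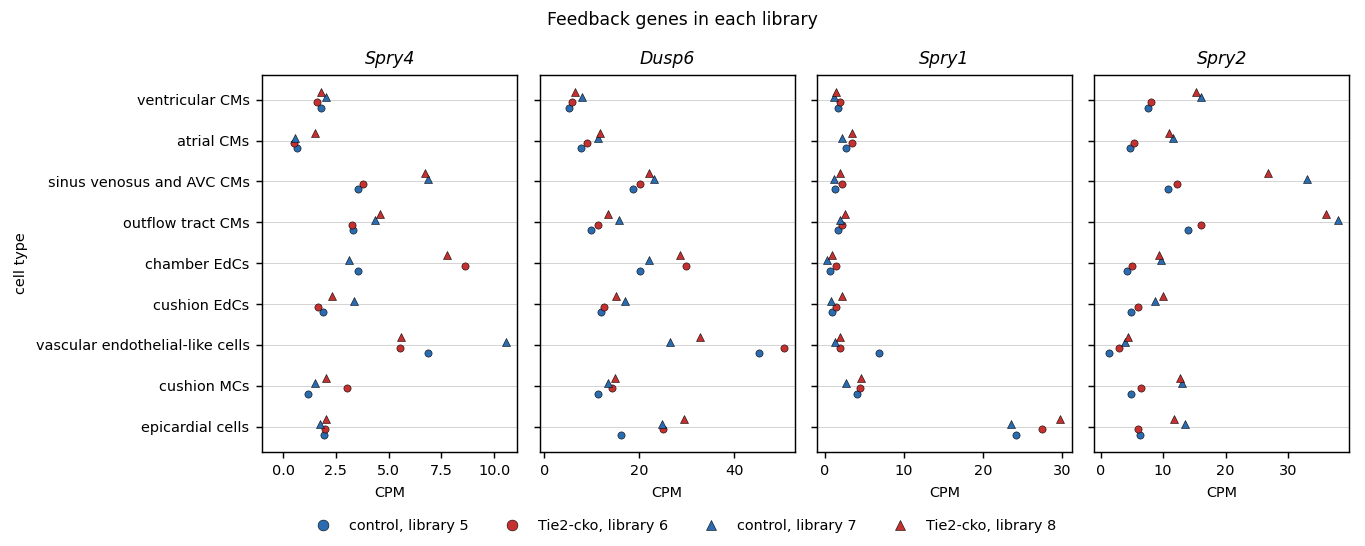
CPM of *Spry4*, *Dusp6*, *Spry1* and *Spry2* in each library (blue, control; red, *Tie2-cko*; circles, libraries 5 and 6; triangles, libraries 7 and 8) and cardiac cell type. In chamber EdCs the *Tie2-cko* libraries lay apart from the controls for *Spry4* (7.74 and 8.63 against 3.12 and 3.53), whereas *Spry2* separated libraries 7 and 8 from libraries 5 and 6.

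Over all EdCs together, *Spry4* was at 2.92 and 3.20 CPM in control and 5.94 and 5.29 in *Tie2-cko* libraries (log2 fold change 0.81, SE 0.24, adjusted p = 0.916 by edgeR). *Spry1*, which was under 2 in these cells, stood at 0.773 and 0.409 against 1.36 and 1.44 (1.21, SE 0.48). In cushion EdCs *Fgfrl1* was at 19.2 and 13.2 against 25.01 and 21.8 (0.50, SE 0.22, adjusted p = 1.00). Of the 13 genes tested there 4 were higher in both *Tie2-cko* libraries (*Fgfrl1*, *Etv5*, *Fgf2* and *Spred1*) and 0 lower, where 18.8% and 9.8% of all genes were, and the log2 fold change of *Fgf2* was 0.09 (SE 0.23).

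Outside the endocardium 5 differences had an unadjusted p under 0.05, 4 of them lower and 1 higher in the *Tie2-cko* libraries. *Fgf9* in sinus venosus and AVC CMs was at 9.55 and 16.6 CPM in control and 5.67 and 7.86 in *Tie2-cko* libraries (log2 fold change -0.91, SE 0.32, adjusted p = 1.00 by edgeR, and 0.00303 with the block for libraries 5 and 6). Without control library 7 it was -0.48 and without control library 5 -1.25. The share of cells with an *Fgf9* UMI overlapped after thinning to 5500 UMIs, with 2.93% and 7.45% in control and 1.25% and 2.995% in *Tie2-cko* libraries. *Fgfr2* in Isl1-positive mesenchyme was at 20.6 and 17.6 against 13.5 and 11.9 (-0.67, SE 0.28). The make-up of this type differed the same way. Its cluster led by *Col9a1* and *Ntng1*, where *Fgfr2* was highest, held 82 of 224 and 69 of 273 cells in control libraries 5 and 7. In *Tie2-cko* libraries 6 and 8 it held 16 of 72 and 72 of 476. The part of this make-up in the *Fgfr2* difference was not tested. *Etv5* in outflow tract CMs had the values given above, higher in the *Tie2-cko* libraries (0.38, SE 0.16); of the 21 genes tested in these cells 7 were higher in both *Tie2-cko* libraries and 0 lower, where 12.9% and 8.79% of all genes were. In Pax9-positive epithelium *Spry1* had the values given above (-0.58, SE 0.19) and *Fgf20* was at 7.61 and 5.72 against 1.18 and 2.84 (-1.47, SE 0.51), the value of library 6 being 1 UMI. That epithelium had 35 cells in library 6 and 247 to 318 in the others, and of the 16 genes tested 0 were higher and 4 lower in both *Tie2-cko* libraries, where 16.3% and 10.3% of all genes were. Over the 10 alternatives the log2 fold change of *Fgf20* ran from -2.55 (without *Tie2-cko* library 8) to -1.25 (without library 6). The adjusted p-values of these 5 by edgeR without the block were all 1.00.

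The wider pathway was described with 46 further genes: adaptors such as *Frs2* and *Grb2*, kinases of the cascade, other inhibitors such as *Dusp4* and *Il17rd*, cofactors such as *Klb* and *Flrt3*, and heparan sulphate genes such as *Ext1*, *Hs6st1* and *Gpc3*. Over the 16 fits they gave 639 tests, of which 0 passed the adjusted threshold with edgeR or with DESeq2. An unadjusted p under 0.05 with edgeR was found in 18 of the 639, where 1.62% of all tests had one. In the separate cell types alone it was 14 of 554, for which the share of all tests was not worked out. In chamber EdCs 40 were tested, with 15 higher and 4 lower in both *Tie2-cko* libraries, against 24.9% and 13.3% of all genes, and a median log2 fold change of 0.05. *Hs6st2*, a heparan sulphate 6-O-sulphotransferase, is named after its values were seen, as the gene with the largest log2 fold change of the 40. It stood at 9.91 and 8.70 CPM in control and 20.5 and 21.2 in *Tie2-cko* chamber EdCs (log2 fold change 1.11, SE 0.19, adjusted p = 0.210 by edgeR). In cushion EdCs, cushion MCs and all CMs the median log2 fold changes of these genes were 0.05, 0.05 and -0.01.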

How the data were processed

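Droplet single-cell RNA-seq of E10.5 hearts gave 4 libraries, 2 of each genotype. The values are UMI counts per gene and cell, deposited by the authors without normalization; per the file headers they come from Cell Ranger 6.1.2, the methods naming another version, and the submitters' notes give mm10, while the annotation is not given in the sources used here. Barcodes were kept from 500 genes and 1000 UMIs upward and up to 10% mitochondrial UMIs. Doublets, the barcodes of highest Scrublet score at 0.8% per 1000 barcodes, were removed (scanpy 1.11.5), which left 33419 cells. Seurat 5.3.0 clustered them on 2000 variable genes, leaving out 83 genes (the pathway genes and *Tek*), with 30 principal components at a resolution of 0.8, and 1 mixed mesenchymal cluster was clustered again (20 components, resolution 0.6). Names came from fixed marker lists. Principal components were computed exactly and their scores rounded; smaller numerical changes moved the borders of some clusters, so the cell types rest on 1 clustering. Clusters of low UMI count (3875 cells) and 1 of 38 cells stayed unnamed. Intervals and floors cover counting error only.

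UMI counts were added up over the cells of a type in each library. The main test was edgeR 4.0.16's quasi-likelihood test (TMM, filterByExpr, genotype alone) in types with at least 20 cells in every library, with Benjamini-Hochberg adjustment over all genes of a fit, and the difference of genotype effects between cell types was tested as an interaction term. The main test, but not the interaction term, was run on simulated counts of chamber EdCs and all CMs, whose outcome is not given here. DESeq2 1.42.0, median-ratio size factors, no filter, each library left out, a block for libraries 5 and 6 against 7 and 8, a stricter cell filter (1500 genes, 5% mitochondrial) and doubled doublet removal were the alternatives. For shares of cells, each cell was thinned to 5500 UMIs, or to 3000 as an alternative.

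Genes were named with their values if they reached 10 CPM on average in a named cell type, if they had an unadjusted p under 0.05 for genotype, or, in chamber EdCs, if both *Tie2-cko* libraries lay on one side of both controls. The genes, lists and tests were chosen with earlier results of these data known. Positions are from GENCODE M21 (GRCm38) and promoters from RefSeq. Protein sequences were not used here.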

Additional observations from a re-analysis of the deposited data

How the results depend on the processing

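The genotypes share no replicate number in the labels. The methods say that control and mutant libraries were matched by somite number, without naming which, so no pairs were assumed. A block for libraries 5 and 6 against 7 and 8, which sets 1 control beside 1 *Tie2-cko* library, follows their cell make-up. With that block edgeR called 2 pathway genes in chamber EdCs, *Spry4* (adjusted p = 0.000273) and *Dusp6* (0.0296), and 1 in sinus venosus and AVC CMs, *Fgf9* (0.00303). Calls among all genes changed over the alternatives too, from 1 to 923 in chamber EdCs and 0 to 93 in sinus venosus and AVC CMs. In atrial CMs they ran from 0 to 39 and in all EdCs from 0 to 467. The calls in this paragraph are therefore not to be read as particular to the pathway genes. Without the filter on low counts it called 1 in chamber EdCs (*Spry4*, 0.00743). DESeq2 gave 0.678 for *Spry4* there. For the difference of genotype effects between chamber EdCs and all CMs, no filter called 1 (*Spry4*, adjusted p = 0.00765) and leaving out a library 0 to 2: *Spry4* without control library 5 (0.0201) or *Tie2-cko* library 8 (0.00582), and *Dusp6* without library 8 (0.0473). Of the 46 further genes, the block called 1 in atrial CMs, 4 in chamber EdCs and 3 in all EdCs, no filter called 1 in chamber EdCs, and leaving out a library called 0 to 1 there (1 without control library 5, *Tie2-cko* library 6 or *Tie2-cko* library 8).

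Shares of cells with a UMI reversed, as *Tie2-cko* minus control in percentage points, for *Fgfr1* in chamber EdCs (6.33), *Fgfr2* in Isl1-positive mesenchyme (0.633) and *Spry1* in Pax9-positive epithelium (2.13) without thinning, and for *Spred1* in chamber EdCs (-0.0569) and *Spry4* in all EdCs (-0.0883) at 3000 UMIs.

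The number of all genes called depended on the setting, from 1 to 923 in chamber EdCs (1 in the main test), 7 to 78 in cushion EdCs (7), 0 to 467 in all EdCs (1), 0 to 63 in epicardial cells (4), 2 to 79 in Pax9-positive epithelium (6), 58 to 544 for chamber EdCs against all CMs (97) and 20 to 207 for chamber against cushion EdCs (80). The cause was not tested. The highest of the 14 cell types stayed the same for 18 or 19 of 20 genes under each alternative. Depth limits rare genes: at 2 libraries a genotype, low counts such as those of *Fgf10* leave wide errors.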

Other observations

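The cluster of 38 cells that stayed unnamed, led by *Tcf15*, *Pax3*, *Lbx1* and *Myod1*, entered no comparison. It held *Etv4* at 35.2 CPM over the 4 libraries together, on 27 UMIs, with 5, 1, 16 and 16 cells in libraries 5 to 8, and at 16.6 in library 7 and 32.5 in library 8. Red blood cells held 0.171 ± 0.0975 (n = 4), and the highest average in a named cell type was 17.3 ± 0.679 (n = 3) in Dlx-positive pharyngeal mesenchyme. The cushion MC cluster led by *Stmn4*, *Postn* and *Inhba*, given above, had library values that overlapped those of libraries 7 and 8 here. The cluster was too small for a comparison of genotypes.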
